A study of Mus musculus with 4 samples.

Results

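The genes described here are those of the core transforming growth factor beta (TGFb) pathway that carry the signal from outside the cell to the nucleus. They are the ligands Tgfb1 and Tgfb3, the receptors Tgfbr1, Tgfbr2 and Tgfbr3, and the signalling Smads Smad2, Smad3 and Smad4. They were chosen by name, as the array probes annotated to one of these symbols. These 8 genes, of 27670 named on the arrays, were covered by 14 probes, of which 13 passed the filter on dim probes. All 8 genes were among the 19901 tested, each through the probe of its highest mean signal.

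The samples were CD4+ cells of mouse lymph node, grown for 4 days on plastic coated with 1 ug/ml anti-CD3, an antibody that triggers the T cell receptor. Every culture received IL2, a T cell growth factor, at 100 units/ml over a 3-day incubation, and the conditions differed in the other cytokines. The IL2 condition had no further cytokine (3 arrays). The TGFb condition had 4 ng/ml TGFb in addition (3 arrays), the TGFb with IL6 condition had 4 ng/ml TGFb and 25 ng/ml IL6 (4 arrays), and the IL6 condition had 25 ng/ml IL6 without TGFb (3 arrays). On each of the 13 arrays, RNA labelled as coming from regulatory T cells (Treg) was hybridised in one dye and RNA labelled as coming from T-effector cells in the other, so that both samples of a condition shared every spot. The series addresses conversion to Treg by TGFb and its inhibition by IL6. The labels used here do not give the strain, age or sex of the mice, how Treg and T-effector cells were separated, or whether the arrays of a condition hold separate cultures or animals. A p-value thus reflects the spread of these arrays alone, and that spread may be technical in origin.

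TGFb ligands are secreted in a latent form and act once they are released from it. The active ligand is bound by the type II receptor, encoded by Tgfbr2, which recruits and phosphorylates the type I receptor, encoded by Tgfbr1. The type I receptor phosphorylates Smad2 and Smad3, which join Smad4 and enter the nucleus to regulate transcription, while betaglycan, encoded by Tgfbr3, presents ligand to the signalling receptors. In CD4+ T cells TGFb together with IL2 induces Foxp3, the lineage factor of Treg, whereas TGFb together with IL6 favours the Th17 programme, whose hallmark cytokine is Il17a.

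Treg and T-effector signals are given as normalised log2 intensities per channel, and a ratio is the Treg over T-effector log2 ratio within an array. Fitted differences are log2 values from limma with their standard errors, adjusted for dye, so they can depart slightly from the differences of the group means. A gene was called when its p-value, adjusted over all 19901 genes by the Benjamini-Hochberg method, was below 0.05. All arrays share 1 estimate of the spread, so leaving out an array can change the p-value of a comparison that does not involve it. A call gained in that way is no independent support. Where values are listed per array, the arrays of a condition stand in the order of their replicate number. The arrays lie on 5 slides, and the design puts conditions unevenly on them: IL2 and TGFb share a slide in 1 pair of arrays (slide D), TGFb with IL6 and IL6 in 1 pair of the same dye orientation (slide E), IL2 and IL6 in 1 pair (slide A), and TGFb and TGFb with IL6 in 3 pairs (slides B, D and E). The 3 arrays of slide B had a Cy3 signal of 118 to 123 at their negative control spots, against 3.59 to 25.4 on the other arrays. Slide B holds only arrays with TGFb, and slides A and C only arrays without it. Slide and TGFb therefore cannot be fully told apart, and only slides D and E hold both kinds of array. Between 39.3% and 69.9% of probes were well above background in Treg channels and 42.1% to 67.1% in T-effector channels, and the number of arrays limits the precision of every value. Foxp3, which should mark the Treg channel, had ratios of 2.39, 1.95, 2.16 and 2.12 in the IL2, TGFb, TGFb with IL6 and IL6 conditions, so the dye assignments hold on this gene.

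Probe positions are those of the array files in build mm7, which give no exon or UTR annotation. Tgfb1 was measured by 1 probe printed at 10 spots per array (chr7:22478890-22478949, plus strand) and Tgfb3 by 1 probe (chr12:84058334-84058393, minus strand). The tested probe of Tgfbr1 lies at chr4:47428363-47428422 (plus strand), that of Tgfbr2 at chr9:115760364-115760423 (minus strand), that of Tgfbr3 at chr5:106286319-106286378 (minus strand) and that of Smad3 at chr9:63675794-63675853 (minus strand). Tgfb1, Tgfbr1, Tgfbr2, Smad2, Smad3 and Smad4 exceeded the background clearly on all 13 arrays in both cell types, and Tgfb3 in 12 Treg and 13 T-effector channels. Tgfbr3 did so in only 8 Treg channels and as many T-effector channels. No spot of these probes was saturated, and no array lacked a value for them. Because an offset of 50 was added to the signals before logs were taken, differences of the dim probes, Tgfb3 and Tgfbr3 above all, are understated.

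Promoter sequences are shown for Tgfbr1, Tgfbr2 and Smad3, the genes with a RefSeq promoter at hand whose signal differed most between conditions. Of the 8 genes, 4 had an entry. Each runs 5' to 3' on the gene's strand over the 250 bases before the annotated start in RefSeq, build GRCm38.p6, in lower case, with capitals marking the Smad box CAGAC.
Tgfbr1, chr4:47352972-47353221, plus strand: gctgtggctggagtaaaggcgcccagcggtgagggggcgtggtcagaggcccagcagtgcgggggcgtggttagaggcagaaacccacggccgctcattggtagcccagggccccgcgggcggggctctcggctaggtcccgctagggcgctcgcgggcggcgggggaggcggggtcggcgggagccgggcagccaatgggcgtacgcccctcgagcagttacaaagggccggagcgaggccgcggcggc
Tgfbr2, chr9:116175364-116175613, minus strand: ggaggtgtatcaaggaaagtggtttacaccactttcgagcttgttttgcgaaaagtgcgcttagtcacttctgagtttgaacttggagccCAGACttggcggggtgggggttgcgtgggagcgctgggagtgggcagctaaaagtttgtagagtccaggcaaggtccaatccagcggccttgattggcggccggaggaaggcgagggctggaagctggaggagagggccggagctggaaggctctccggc
Smad3, chr9:63757995-63758244, minus strand: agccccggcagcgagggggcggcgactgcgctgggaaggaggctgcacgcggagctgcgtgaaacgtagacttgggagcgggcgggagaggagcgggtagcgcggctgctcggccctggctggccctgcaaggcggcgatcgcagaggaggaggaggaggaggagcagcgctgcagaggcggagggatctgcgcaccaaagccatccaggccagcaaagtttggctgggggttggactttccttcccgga
The search covered both strands for CAGAC, for the palindromic Smad element GTCTAGAC, which overlaps CAGAC in part, and for TTCNNNGAA, the spaced repeat bound by Stat3, the factor downstream of the IL6 receptor. Tgfbr2 held 1 CAGAC and the other promoters held no match to any of the 3. Over 32851 RefSeq promoter windows of this length, 42.2% held CAGAC, 7.02% TTCNNNGAA and 0.167% GTCTAGAC, so a single CAGAC is common and the matches are a description of these letters only.

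The 8 genes did not move as one block. Tgfbr1 rose in both cell types in the comparisons that differ in TGFb. Tgfb3 and Tgfbr2 rose in Treg channels with TGFb and in T-effector channels with TGFb and IL6 together, and Smad3 rose in both cell types when IL6 was added to TGFb. All 16 called differences between conditions were rises, and they came from Tgfbr1, Tgfb3, Tgfbr2, Smad3 and Smad4. Over all genes, 42.4% to 56.8% of the calls in these comparisons were rises. With TGFb against IL2, 3 of the 8 genes passed in Treg channels, all higher, where 7.79% of all genes passed in either direction. In T-effector channels the same comparison called 1 of 8, against a background of 4.31%. With IL6 added to TGFb, 1 of 8 passed in Treg channels (5.6% of all genes) and 3 of 8 in T-effector channels (7.49% of all genes). For TGFb with IL6 against IL6 the counts were 3 of 8 in Treg (10.1% of all genes) and 4 of 8 in T-effector channels (11.2% of all genes). IL6 against IL2 called 1 of 8 in T-effector channels, where 0.804% of all genes passed. In Treg channels limma called 0 of 8 for IL6 against IL2, where 0.96% of all genes passed and 1 member had an unadjusted p under 0.05.

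Comparisons that name the same condition share its arrays and are not independent of each other. The median difference of the 8 genes for TGFb against IL2 was 0.36 in Treg channels, beside -0.01 over all genes, and 0.11 in T-effector channels, beside 0.01. For TGFb with IL6 against IL6 it was 0.18 in Treg channels, beside -0.03, and 0.43 in T-effector channels, beside 0.01.

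**Figure D1:**
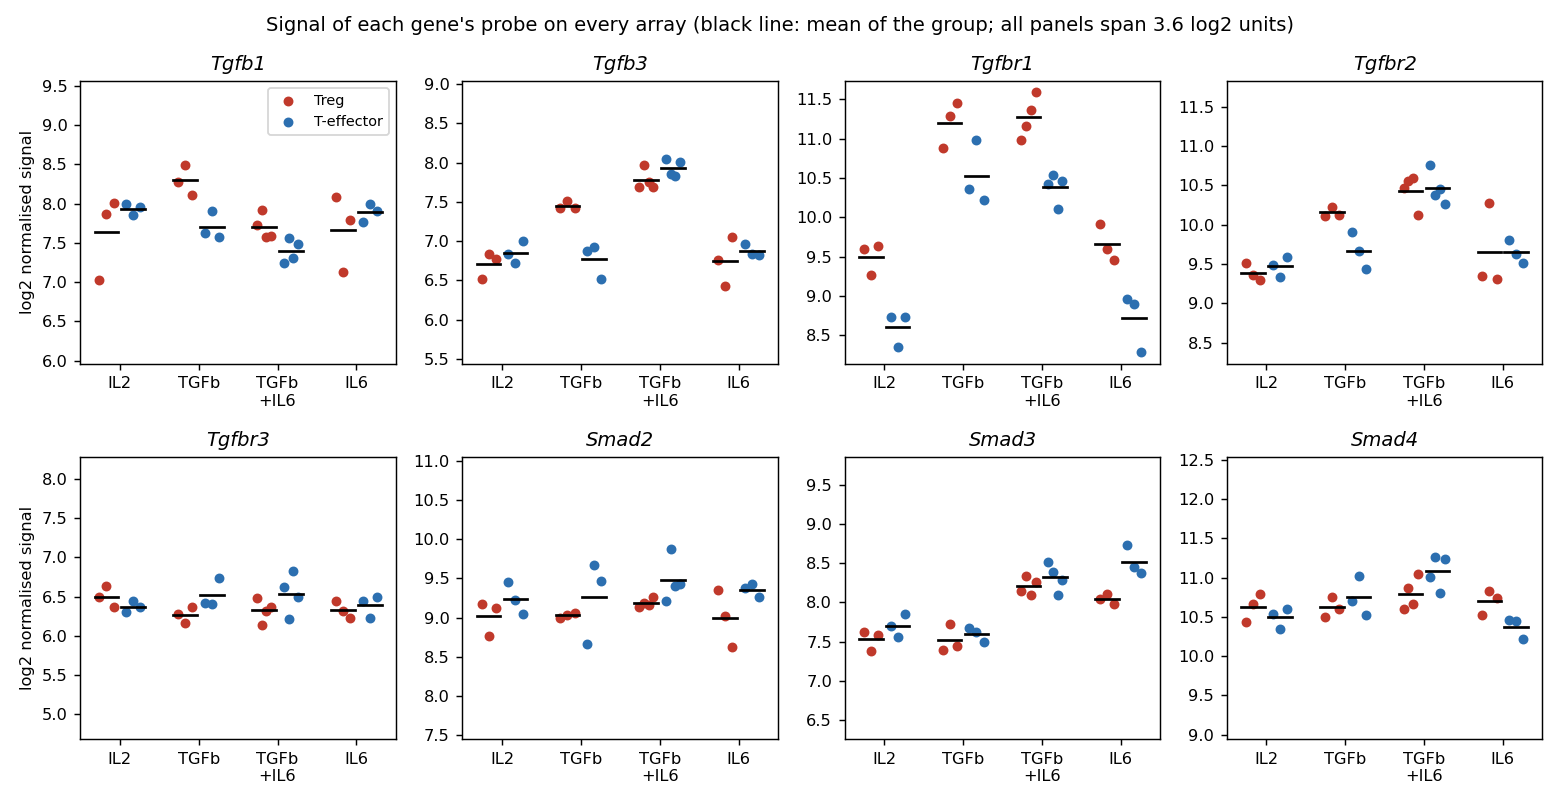
Normalised log2 channel signal (y axis of each panel) of the 8 genes by condition and cell type, with 1 point per array and a bar at the group mean. Tgfbr1 signals of the TGFb arrays and the TGFb with IL6 arrays lie above all arrays without TGFb of the same cell type, and Smad3 signals of the arrays with IL6 lie above all arrays without it.

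Tgfbr1, the type I receptor that phosphorylates Smad2 and Smad3, had the widest range of the 8 genes, and its group means spanned 2.67 log2 units. Its Treg signals were 9.59, 9.27 and 9.63 on the IL2 arrays, 10.88, 11.29 and 11.45 on the TGFb arrays, 10.99, 11.16, 11.36 and 11.59 on the TGFb with IL6 arrays, and 9.91, 9.60 and 9.45 on the IL6 arrays. Its T-effector signals were 8.73, 8.35 and 8.73, then 10.36, 10.99 and 10.22, then 10.42, 10.54, 10.10 and 10.46, and 8.96, 8.90 and 8.28 in the same order of conditions. Within each cell type every array with TGFb was above every array without it, and the IL2 and IL6 arrays overlapped, as did the TGFb and TGFb with IL6 arrays. With TGFb against IL2 the gene rose 3.46-fold in Treg (1.79 ± 0.18 SE, n = 3 and 3, limma adjusted p = 6.46e-07) and 3.58-fold in T-effector channels (1.84 ± 0.18, adjusted p = 1.37e-06). With TGFb and IL6 against IL6 it rose 2.99-fold in Treg (1.58 ± 0.17, n = 4 and 3, adjusted p = 1.04e-06) and 3.25-fold in T-effector channels (1.70 ± 0.17, adjusted p = 3.92e-07). Adding IL6 to TGFb left differences of 0.03 ± 0.17 in Treg and -0.10 ± 0.17 in T-effector channels, with adjusted p of 0.977 and 0.863. Between arrays of 1 slide the TGFb against IL2 difference was 2.18 in Treg and 1.87 in T-effector channels, and that of TGFb with IL6 against IL6 was 1.08 and 1.46.

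Tgfbr1 was also the gene whose Treg signal stood above the T-effector signal in all 4 conditions. Its ratios were 0.86, 0.91 and 0.90 on the IL2 arrays, 0.53, 0.30 and 1.22 on the TGFb arrays, 0.57, 0.62, 1.27 and 1.13 on the TGFb with IL6 arrays, and 0.95, 0.70 and 1.16 on the IL6 arrays. All 13 ratios were above 0, and those of the IL2 arrays lay closest together. In the other conditions the 4 arrays with Treg in Cy5 had the highest ratios (1.13 to 1.27), and those with Treg in Cy3 ran from 0.30 to 0.95. The fit adjusts by 1 dye term common to all conditions, although the IL2 arrays differed little by dye (0.86 in Cy3, 0.91 and 0.90 in Cy5). The fitted IL2 ratio of 0.82 lies below all 3 IL2 arrays, and that with TGFb, 0.76, lies above the mean of its arrays, 0.68. The fitted ratio was 0.82 ± 0.11 with IL2 (adjusted p = 0.00166), 0.76 ± 0.11 with TGFb (adjusted p = 0.00227), 0.89 ± 0.10 with TGFb and IL6 (adjusted p = 0.000494) and 1.02 ± 0.11 with IL6 (adjusted p = 0.000521). In the order of levels the T-effector channels without TGFb were lowest, then the Treg channels without TGFb, then the T-effector channels with TGFb and last the Treg channels with TGFb. Neighbours within each of these 4 levels overlapped, the T-effector and Treg channels of the TGFb arrays overlapped too, and the steps between the other levels did not. The rise with TGFb did not differ detectably between the cell types (ratio difference for TGFb against IL2 -0.05 ± 0.16, adjusted p = 0.874). Centring each array on its median in place of loess ended all 4 ratio calls, with ratios of 0.01, 0.92, 0.82 and 0.19 in the order above, and turned this ratio difference to 0.91 (adjusted p = 0.0438), while the median over all genes moved by -0.30 for the IL2 ratio and by 0.43 for the ratio difference. The TGFb ratio was 0.60 (adjusted p = 0.0861) without TGFb array 3, and the IL2 ratio was 0.61 (adjusted p = 0.057) with background parameters taken from all spots.

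A second, dim probe of Tgfbr1 spans chr4:47420840-47424498, a stretch longer than a probe, and exceeded background in 5 channels of each cell type. It gave 0.61 for TGFb against IL2 in Treg channels (adjusted p = 0.000822) and 0.21 in T-effector channels (adjusted p = 0.342). For TGFb with IL6 against IL6 it gave 0.23 in Treg (adjusted p = 0.196) and -0.01 in T-effector channels (adjusted p = 0.966), neither called. None of its ratios was called either: they were -0.09 with IL2, 0.31 with TGFb, 0.26 with both cytokines and 0.02 with IL6. The other Tgfbr1 calls therefore rest on the brighter probe.

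**Figure D2:**
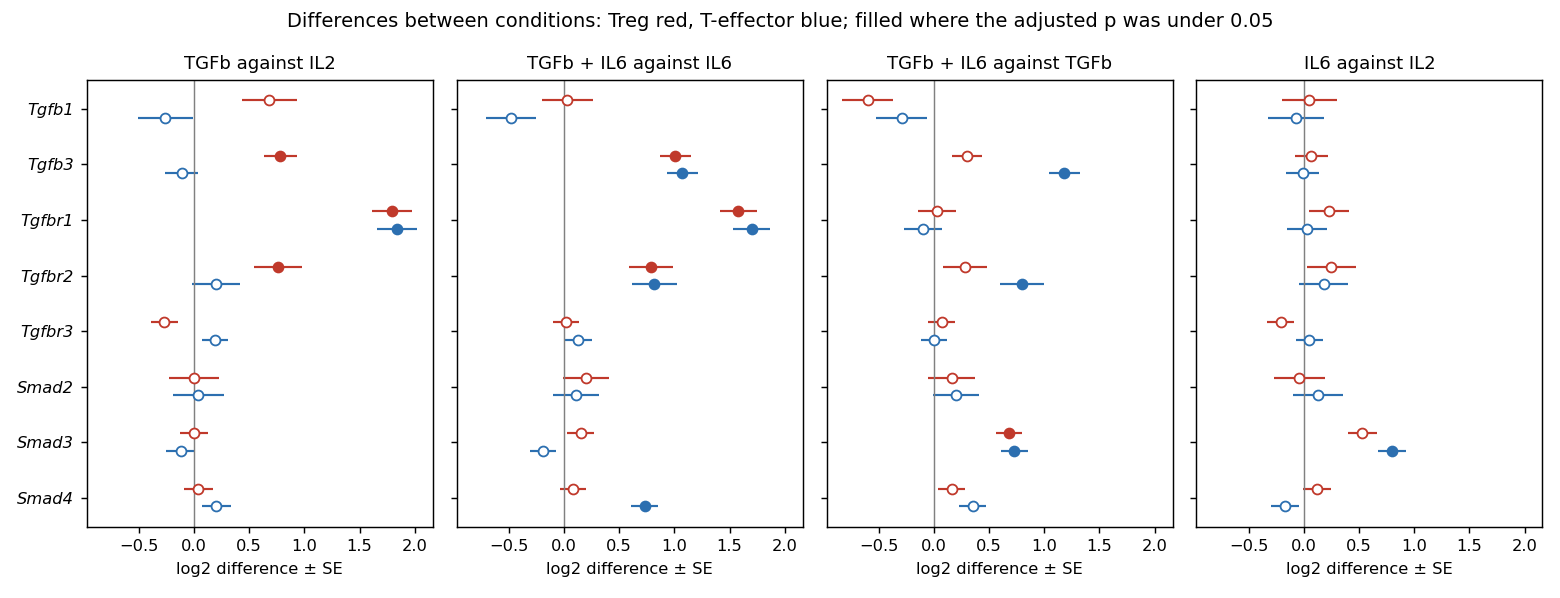
Fitted log2 difference between 2 conditions (x axis) for each of the 8 genes, in Treg and in T-effector channels, with bars of 1 standard error and filled points for adjusted p under 0.05. Tgfbr1 lies at 1.58 to 1.84 in the comparisons that differ in TGFb and near 0 in those that differ in IL6, while Smad3 lies at 0.53 to 0.80 in the comparisons that differ in IL6 and at -0.19 to 0.15 in the others.

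Tgfbr2, the type II receptor that binds the ligand first, rose with TGFb in Treg channels, and in T-effector channels only the cells given TGFb and IL6 together stood higher. Its Treg signals were 9.51, 9.36 and 9.30 with IL2, 10.11, 10.23 and 10.13 with TGFb, 10.47, 10.56, 10.59 and 10.12 with TGFb and IL6, and 9.35, 10.28 and 9.31 with IL6. All TGFb and TGFb with IL6 arrays were above all IL2 arrays, but IL6 array 2 lay among the arrays with TGFb. Its T-effector signals were 9.49, 9.34 and 9.59 with IL2, 9.91, 9.66 and 9.44 with TGFb, 10.76, 10.38, 10.46 and 10.26 with TGFb and IL6, and 9.80, 9.63 and 9.51 with IL6. Here the TGFb with IL6 arrays were above all others, which overlapped each other. In Treg channels the gene rose 1.69-fold for TGFb against IL2 (0.76 ± 0.22, adjusted p = 0.0339) and 1.73-fold for TGFb with IL6 against IL6 (0.79 ± 0.20, adjusted p = 0.0139). In T-effector channels the difference for TGFb against IL2 was 0.20 ± 0.22 (adjusted p = 0.68), and the gene rose 1.74-fold when IL6 was added to TGFb (0.80 ± 0.20, adjusted p = 0.017) and 1.77-fold for TGFb with IL6 against IL6 (0.82 ± 0.20, adjusted p = 0.0103). The response to TGFb alone was not shown to differ between the cell types (ratio difference 0.56 ± 0.26, adjusted p = 0.223). Without slide E, which leaves only IL6 array 2 of its condition, this ratio difference was 0.70.

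These Tgfbr2 calls stand close to the threshold. The Treg difference for TGFb against IL2 stayed between 0.72 and 0.83 but was not called without any 1 of the 3 IL2 and 3 TGFb arrays, nor without slide B (0.73, adjusted p = 0.118). The Treg difference for TGFb with IL6 against IL6 was not called without IL6 array 1 (0.64), IL6 array 3 (0.60), TGFb with IL6 array 2 (0.74) or slide B (0.88), and was 0.18 (adjusted p = 0.828) without slide E, which leaves only IL6 array 2. In T-effector channels the difference on adding IL6 to TGFb was not called without TGFb array 2 (0.79), TGFb array 3 (0.66), TGFb with IL6 array 1 (0.68) or slide B (0.94), and that against IL6 was not called without IL6 array 3 (0.77) or slide E (0.71). Between arrays of 1 slide the 3 T-effector values for adding IL6 to TGFb were 0.85, 0.72 and 1.02. The mean over all kept probes of the gene, which includes a probe at chr9:115782405-115782464 that exceeded background in 5 channels of each cell type, gave 0.36 and 0.31 for these T-effector differences, neither called. The ratios of Tgfbr2 were 0.02, 0.02 and -0.29 with IL2, 0.20, 0.57 and 0.69 with TGFb, -0.29, 0.18, 0.13 and -0.15 with TGFb and IL6, and -0.45, 0.65 and -0.20 with IL6. The TGFb arrays were all above 0 and the other conditions held both signs. No fitted ratio of Tgfbr2 passed. That of the TGFb condition was 0.48 ± 0.18 (adjusted p = 0.173). It passed without IL6 array 2 (0.50, adjusted p = 0.0318) and without slide A (0.51, adjusted p = 0.0213), which holds that array and no array with TGFb. Without IL6 array 2, 8.09% of all genes passed for this ratio, against 5.97% with all arrays. Without slide E, which leaves only IL6 array 2 of its condition, the ratio was 0.63.

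Tgfbr3, which encodes the co-receptor betaglycan, stayed near background and was called in no comparison. Its Treg signals ran from 6.14 to 6.64 and its T-effector signals from 6.21 to 6.82, and it exceeded background in 2 channels of each of the 8 groups. Group means spanned 0.27 log2 units and neighbours overlapped throughout. Its ratios were 0.20, 0.20 and 0.00 with IL2, -0.14, -0.25 and -0.37 with TGFb, -0.14, -0.07, -0.51 and -0.13 with TGFb and IL6, and 0.00, 0.09 and -0.27 with IL6. The IL2 ratios were at or above 0 and all ratios of arrays with TGFb were below it. The ratio difference for TGFb against IL2 was -0.45 ± 0.12 (adjusted p = 0.0565). It passed in several other settings, among them the slide as a block (-0.47, adjusted p = 0.0395), without IL6 array 2 (-0.45, adjusted p = 0.0464) and Agilent's processed signals, which carry no offset (-1.80, adjusted p = 0.00363). The latter also called ratios of 0.63 with IL2, -1.16 with TGFb and -1.15 with TGFb and IL6.

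**Figure D3:**
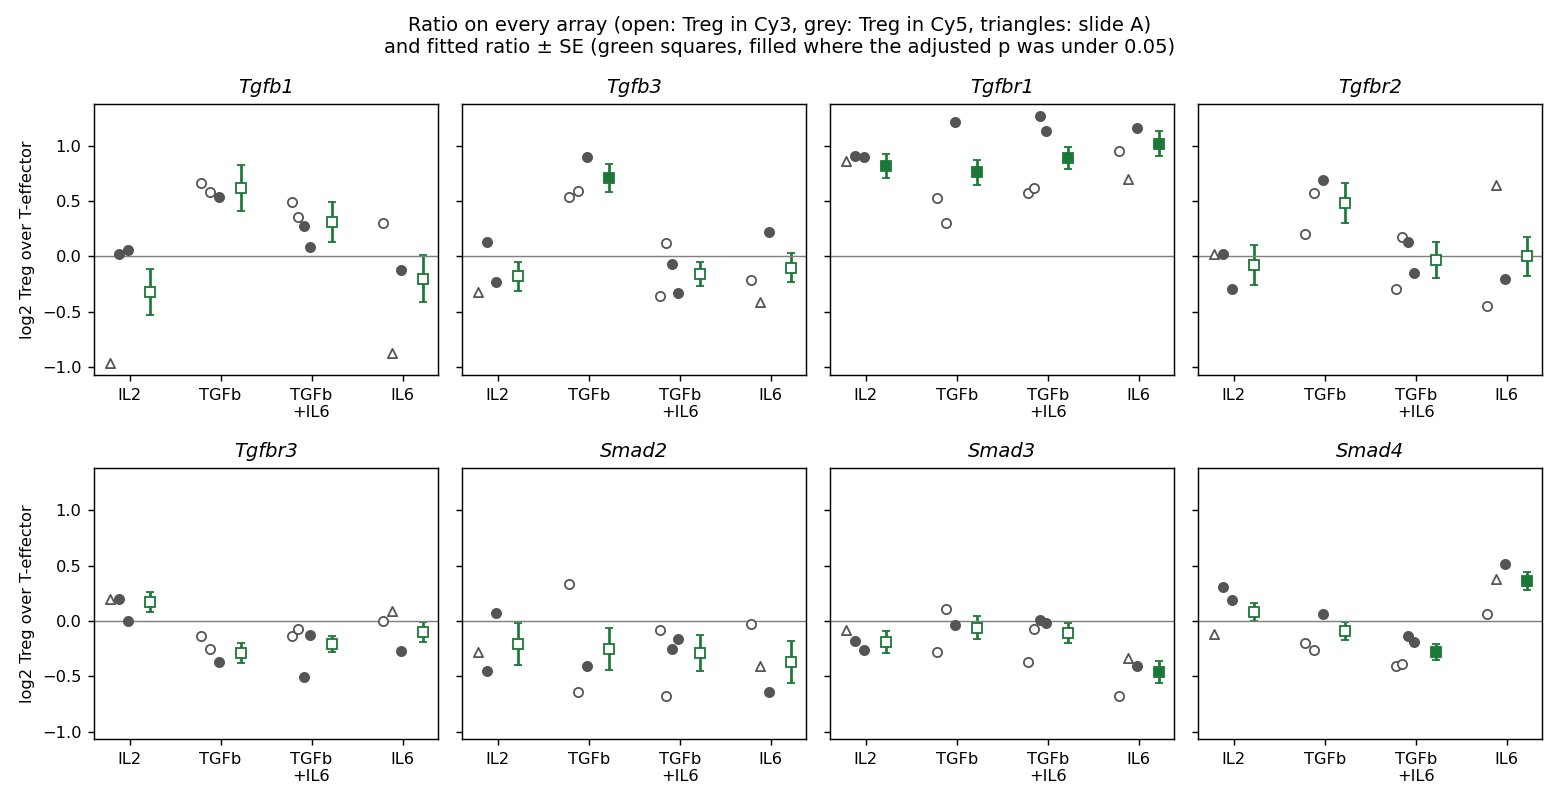
Treg over T-effector log2 ratio (y axis) of each array for the 8 genes, by condition, with a line at 0 (equal signal). Open points have Treg in Cy3, dark points in Cy5, triangles are slide A, and squares are the fitted ratio ± SE, filled where the adjusted p was under 0.05. All 13 Tgfbr1 ratios lie above 0, and the Tgfb3 ratios of the 3 TGFb arrays, 0.54 to 0.90, lie above those of all other arrays.

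Among the ligands, Tgfb3 rose in Treg channels with TGFb and in both cell types with TGFb and IL6 together. Its Treg signals were 6.52, 6.84 and 6.77 with IL2, 7.42, 7.51 and 7.42 with TGFb, 7.69, 7.97, 7.76 and 7.69 with TGFb and IL6, and 6.76, 6.43 and 7.05 with IL6. The arrays of each condition with TGFb were above all arrays without it, and those with TGFb and IL6 were above those with TGFb. Its T-effector signals were 6.84, 6.72 and 7.0 with IL2, 6.88, 6.93 and 6.52 with TGFb, 8.05, 7.85, 7.83 and 8.01 with TGFb and IL6, and 6.97, 6.84 and 6.83 with IL6. Only the TGFb with IL6 arrays stood apart, above all others. In Treg channels the gene rose 1.72-fold for TGFb against IL2 (0.78 ± 0.15, adjusted p = 0.00113) and 2.01-fold for TGFb with IL6 against IL6 (1.01 ± 0.14, adjusted p = 2.02e-05). In T-effector channels TGFb against IL2 gave -0.11 ± 0.15 (adjusted p = 0.729). There it rose 2.27-fold when IL6 was added to TGFb (1.18 ± 0.14, adjusted p = 3.9e-06) and 2.10-fold for TGFb with IL6 against IL6 (1.07 ± 0.14, adjusted p = 1.09e-05). Between arrays of 1 slide the 3 T-effector values for adding IL6 were 1.17, 0.92 and 1.31, and the Treg value for TGFb against IL2 was 0.58. The same addition in Treg channels gave 0.30 ± 0.14 (adjusted p = 0.267), with 0.27, 0.46 and 0.33 between arrays of 1 slide.

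The ratios of Tgfb3 were -0.32, 0.13 and -0.23 with IL2, 0.54, 0.59 and 0.90 with TGFb, -0.36, 0.12, -0.07 and -0.33 with TGFb and IL6, and -0.21, -0.41 and 0.22 with IL6. The 3 TGFb arrays were above all others, which overlapped each other around 0. The fitted ratio with TGFb was 0.71 ± 0.13 (adjusted p = 0.0067) and exceeded that with IL2 by 0.89 ± 0.18 (adjusted p = 0.0193), the test of whether the cell types responded differently. These calls were lost without TGFb array 3 (0.66 and 0.83, adjusted p = 0.131 and 0.136) and with background parameters from all spots (0.30 and 0.47), and the second also without IL2 array 1 (0.87, adjusted p = 0.0734). Adding IL6 to TGFb changed the ratio by -0.87 ± 0.16 (adjusted p = 0.0635), which passed with the slide as a block (-0.86, adjusted p = 0.0225), without slide A (-0.86, adjusted p = 0.0364), without IL6 array 2 (-0.87, adjusted p = 0.0444), without TGFb with IL6 array 2 (-1.04, adjusted p = 0.0383) and with Agilent's processed signals (-1.77, adjusted p = 0.0462). In that ratio comparison 0 of the 8 genes were called, 1 had an unadjusted p under 0.05, and 0.291% of all genes passed.

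Tgfb1, the main TGFb isoform of T cells, was called in no comparison, and slide A stood apart from the other arrays. Its Treg signals were 7.03, 7.87 and 8.01 with IL2, 8.28, 8.49 and 8.11 with TGFb, 7.73, 7.92, 7.58 and 7.59 with TGFb and IL6, and 8.08, 7.13 and 7.79 with IL6. The TGFb arrays were highest in Treg channels, and the lowest values, 7.03 and 7.13, came from IL2 array 1 and IL6 array 2, both on slide A. Its T-effector signals were 7.99, 7.85 and 7.96 with IL2, 7.62, 7.91 and 7.57 with TGFb, 7.24, 7.56, 7.30 and 7.49 with TGFb and IL6, and 7.77, 8.0 and 7.91 with IL6. In these channels the TGFb with IL6 arrays were below all IL2 and IL6 arrays. The ratios were -0.96, 0.02 and 0.06 with IL2, 0.66, 0.58 and 0.54 with TGFb, 0.49, 0.36, 0.28 and 0.09 with TGFb and IL6, and 0.30, -0.87 and -0.12 with IL6. All 7 arrays with TGFb had ratios above 0, and the slide A arrays were the only ones below -0.12. Slide A holds only arrays without TGFb, so slide and lack of TGFb cannot be told apart for its low ratios.

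The repeated spots of the Tgfb1 probe show how far the measurement itself varied. On slide A, 9 spots of IL2 array 1 ranged from -1.05 to -0.83 and 10 spots of IL6 array 2 from -0.96 to -0.79, so the low ratios were seen at every spot. The SD over spots was 0.06 on IL6 array 2 and on TGFb with IL6 array 4, and 0.46 on TGFb array 1, where the spots ran from 0.15 to 1.25. The fitted ratio with TGFb was 0.62 ± 0.21 (adjusted p = 0.123), that with TGFb and IL6 was 0.31 ± 0.18 (adjusted p = 0.387), and TGFb against IL2 gave 0.68 ± 0.25 in Treg channels (adjusted p = 0.104). Without slide A, which leaves 2 IL2 and 2 IL6 arrays, the ratio with TGFb was 0.56 (adjusted p = 0.0014) and that with TGFb and IL6 0.30 (adjusted p = 0.0124). Slide A holds no array of these 2 conditions and was left out after its values were seen. Values that pass without it are therefore a description and no independent support. Adding IL6 to TGFb gave -0.60 ± 0.23 in Treg channels (adjusted p = 0.156), with -0.55, -0.57 and -0.53 between arrays of 1 slide. This difference passed without slide A (-0.57, adjusted p = 0.0034) and with the slide as a block (-0.64, adjusted p = 0.0158). In T-effector channels TGFb with IL6 against IL6 gave -0.48 ± 0.23 (adjusted p = 0.21), which passed without slide A (-0.44, adjusted p = 0.035) and with the slide as a block (-0.69, adjusted p = 0.0125). The ratio difference for TGFb against IL2 was 0.94 ± 0.30 (adjusted p = 0.0897) and passed without IL6 array 1 (0.98, adjusted p = 0.0388) and without IL6 array 2 (0.91, adjusted p = 0.0448).

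Smad3, which TGFb receptors phosphorylate and which binds DNA directly, rose in both cell types when IL6 was added to TGFb, and in T-effector channels also with IL6 alone. Its Treg signals were 7.62, 7.38 and 7.59 with IL2, 7.39, 7.73 and 7.45 with TGFb, 8.14, 8.33, 8.10 and 8.26 with TGFb and IL6, and 8.04, 8.11 and 7.98 with IL6. Its T-effector signals were 7.70, 7.56 and 7.85 with IL2, 7.67, 7.62 and 7.49 with TGFb, 8.51, 8.39, 8.09 and 8.28 with TGFb and IL6, and 8.73, 8.45 and 8.38 with IL6. In both cell types every array with IL6 was above every array without it, and arrays that differed only in TGFb overlapped. When IL6 was added to TGFb the gene rose 1.60-fold in Treg (0.68 ± 0.12, adjusted p = 0.000925) and 1.66-fold in T-effector channels (0.73 ± 0.12, adjusted p = 0.000365). Between arrays of 1 slide these differences were 0.75, 0.60 and 0.65 in Treg and 0.84, 0.77 and 0.60 in T-effector channels. With IL6 against IL2 it rose 1.74-fold in T-effector channels (0.80 ± 0.13, adjusted p = 0.00194), a call lost without slide E (0.77, adjusted p = 0.152). The Treg difference of 0.53 ± 0.13 just missed the threshold (adjusted p = 0.0597). With the replicate number as a block it was 0.52 (adjusted p = 0.0306), with the slide as a block 0.50 (adjusted p = 0.04) and without TGFb array 2 it was 0.53 (adjusted p = 0.0467). For TGFb against IL2 the fit gave 0.00 ± 0.13 in Treg and -0.12 ± 0.13 in T-effector channels, with adjusted p of 0.992 and 0.673.

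A second Smad3 probe, for which the files give no position, was well above background on all 13 arrays. It rose by 0.71 in Treg (adjusted p = 0.0279) and 0.83 in T-effector channels (adjusted p = 0.00751) for IL6 against IL2. When IL6 was added to TGFb it rose by 0.51 in Treg (adjusted p = 0.0393) and 0.65 in T-effector channels (adjusted p = 0.00588). Its ratios were -0.33 with IL2, -0.22 with TGFb, -0.36 with both cytokines and -0.46 with IL6 (adjusted p = 0.0782), and none was called. Another probe, at chr9:63678155-63678214, exceeded background in 1 Treg channel and in 3 T-effector channels. The ratios of the tested probe were -0.08, -0.18 and -0.26 with IL2, -0.28, 0.11 and -0.04 with TGFb, -0.37, -0.07, 0.01 and -0.02 with TGFb and IL6, and -0.68, -0.34 and -0.41 with IL6. The IL6 arrays held 2 of the 3 lowest ratios. The fitted ratio with IL6 was -0.46 ± 0.10 (adjusted p = 0.0268). This call was lost without IL6 array 1 (-0.37), IL6 array 3 (-0.48), slide B (-0.46) or slide E (-0.37).

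Smad4, the partner shared by all receptor-activated Smads, rose in T-effector channels with TGFb and IL6 together. Its T-effector signals were 10.54, 10.35 and 10.60 with IL2, 10.70, 11.02 and 10.53 with TGFb, 11.01, 11.26, 10.81 and 11.24 with TGFb and IL6, and 10.46, 10.45 and 10.22 with IL6. All TGFb with IL6 arrays were above all IL2 and IL6 arrays, with the TGFb arrays between and overlapping. Its Treg signals were 10.43, 10.66 and 10.79 with IL2, 10.50, 10.76 and 10.60 with TGFb, 10.60, 10.87, 10.67 and 11.05 with TGFb and IL6, and 10.52, 10.83 and 10.74 with IL6, and all 4 conditions overlapped. In T-effector channels the gene rose 1.66-fold for TGFb with IL6 against IL6 (0.73 ± 0.12, adjusted p = 0.000246), a call lost without slide E (0.75, adjusted p = 0.067). Adding IL6 to TGFb gave 0.35 ± 0.12 there (adjusted p = 0.082). That difference passed with the replicate number as a block (0.36, adjusted p = 0.0432), with the slide as a block (0.30, adjusted p = 0.0105), without TGFb array 2 (0.46, adjusted p = 0.0347) and without TGFb with IL6 array 3 (0.42, adjusted p = 0.0481). Its values between arrays of 1 slide were 0.31, 0.24 and 0.28.

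The ratios of Smad4 were -0.12, 0.31 and 0.19 with IL2, -0.20, -0.26 and 0.06 with TGFb, -0.41, -0.39, -0.14 and -0.19 with TGFb and IL6, and 0.06, 0.38 and 0.51 with IL6. All IL6 arrays were above 0 and all TGFb with IL6 arrays below it. The fitted ratio was 0.36 ± 0.08 with IL6 (adjusted p = 0.0211) and -0.28 ± 0.07 with TGFb and IL6 (adjusted p = 0.0307), a difference of -0.65 ± 0.10 (adjusted p = 0.0101). With median centring the ratio with IL6 turned to -0.63 and the difference to 0.28 (adjusted p = 0.442), and the ratio with IL2, 0.08 ± 0.08, to -0.87. The ratio with IL6 was not called without IL6 array 2 (0.29), IL6 array 3 (0.36), slide A (0.29), slide B (0.37) or slide E (0.53), and the difference not without IL6 array 3 (-0.64) or slide B (-0.64). The ratio with TGFb and IL6 was not called without any 1 of its 4 arrays (-0.30 to -0.26), without TGFb array 3 (-0.28), nor without slide B (-0.28) or slide E (-0.29), nor with the slide as a block (-0.27, adjusted p = 0.0691). Without the dye term none of the 3 passed (0.32, -0.28 and -0.60). A second, dimmer Smad4 probe, well above background on all 13 arrays, was called in none of these comparisons. It gave 0.23 for TGFb with IL6 against IL6 in T-effector channels (adjusted p = 0.495), ratios of 0.24 with IL6 (adjusted p = 0.372) and 0.23 with TGFb and IL6 (adjusted p = 0.356), and a ratio difference of -0.02 (adjusted p = 0.972). The Smad4 values therefore rest on 1 of its 2 probes.

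Smad2, the other receptor-activated Smad of the pathway, was called in no comparison. Its Treg signals ran from 8.77 to 9.18 with IL2, 9.0 to 9.06 with TGFb, 9.13 to 9.27 when IL6 was added to it and 8.63 to 9.35 with IL6, and its T-effector signals from 9.05 to 9.46, 8.67 to 9.67, 9.21 to 9.87 and 9.26 to 9.43. The group means spanned 0.48 log2 units, and the only neighbours in their order that did not overlap were the Treg channels with TGFb and with TGFb and IL6. The 8 fitted differences between conditions lay between -0.04 and 0.20, with standard errors of 0.21 to 0.23. Its ratios were -0.28, -0.45 and 0.07 with IL2, 0.33, -0.64 and -0.41 with TGFb, -0.08, -0.68, -0.25 and -0.16 with TGFb and IL6, and -0.03, -0.41 and -0.64 with IL6. They were below 0 on 11 of 13 arrays, and no fitted ratio passed. Agilent's processed signals called 3 of them, -0.45 with TGFb, -0.38 with both cytokines and -0.25 with IL6.

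The ratio between the cell types was called for 8 of 32 values. With IL2 1 of 8 passed (11% of all genes), with TGFb 2 of 8 (5.97%), with TGFb and IL6 2 of 8 (5.84%) and with IL6 3 of 8 (5.84%). Tgfbr1 was among them in each of the 4 conditions, Tgfb3 joined with TGFb, Smad4 with TGFb and IL6, and Smad3 and Smad4 with IL6. The IL6 arrays were least alike, with log ratios over all genes that correlated at 0.17 to 0.31, against 0.29 to 0.68 within the other conditions. Without IL6 array 3, 0.839% of all genes passed for the IL6 ratio. The ratio differed between conditions for 1 of 8 genes with TGFb against IL2 (5.87% of all genes), namely Tgfb3, and for 1 of 8 with TGFb and IL6 against IL6 (3.99% of all genes), namely Smad4. For IL6 against IL2 limma called 0 of 8 and 0% of all genes, with 1 member and 683 of 19901 genes at an unadjusted p under 0.05.

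**Figure D4:**
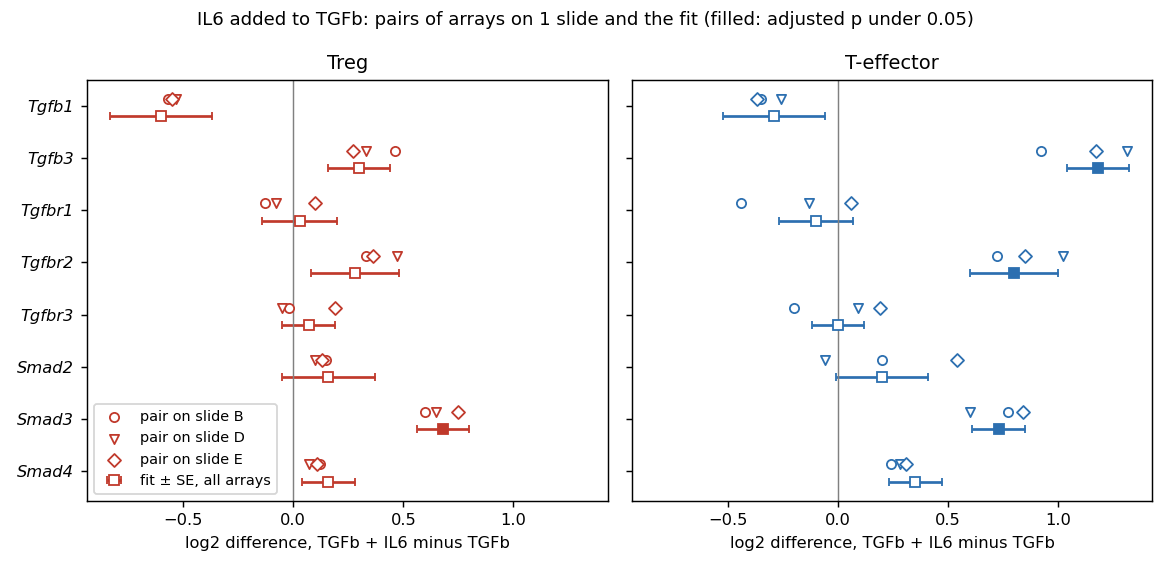
Log2 difference of the channel signal, TGFb with IL6 minus TGFb (x axis), for each of the 8 genes in Treg (left) and T-effector channels (right). Open circles, triangles and diamonds are pairs of arrays on slides B, D and E, and squares with bars are the fit over all arrays ± SE, filled where the adjusted p was under 0.05. The pairs of Smad3 lie at 0.60 to 0.84 in both cell types, and those of Tgfb3 and Tgfbr2 in T-effector channels at 0.92 to 1.31 and 0.72 to 1.02.

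For the called differences between conditions and of ratios, 18 have at least 1 pair of arrays on a shared slide. These pairs gave 26 values, all with the sign of the fit. They are among the arrays fitted and were looked at for called differences only, so their sign is a description and no independent support. Of the 26 called values of the 8 genes, among 128 tested, 10 were called in each of 26 settings fitted. They were the 4 differences of Tgfbr1 between conditions that differ in TGFb and the 4 called differences of Tgfb3 between conditions. Both Smad3 differences for adding IL6 to TGFb made up the rest. The setting that fitted every probe counted only the tested probe of each gene. The second Tgfbr1 probe was called only for TGFb against IL2 in Treg channels.

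Other genes of the pathway were taken from lists of 56 genes by role, of which 49 were tested. Over all lists, TGFb against IL2 called 18 higher and 4 lower in Treg channels and 10 higher and 1 lower in T-effector channels. TGFb with IL6 against IL6 called 15 higher and 5 lower in Treg and 16 higher and 3 lower in T-effector channels. Adding IL6 to TGFb called 6 higher and 2 lower in Treg and 9 higher and 2 lower in T-effector channels, and IL6 against IL2 called 2 higher in each cell type. The shares of all genes that passed in these comparisons are those given above.

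Of 8 other receptors tested, 4 rose in Treg channels with TGFb against IL2: the BMP type II receptor Bmpr2 by 1.46, and the activin receptors Acvr1 by 0.79, Acvr2a by 0.76 and Acvr1c by 0.60. In T-effector channels 2 rose, Acvr2a by 0.72 and Acvr1 by 0.40. Acvr2a, the type II receptor for activin, also rose when IL6 was added to TGFb, by 1.07 in Treg and 1.21 in T-effector channels, while Acvr1 fell by 0.55 in Treg channels. Of 10 genes for ligands and their activation, Inhba, the activin A subunit, rose by 1.30 ± 0.16 and Furin, the protease that cleaves the TGFb precursor, by 1.51 ± 0.40 in Treg channels with TGFb against IL2. Itgb8, an integrin chain that releases active TGFb from its latent form, fell by 2.02 in the same comparison. In T-effector channels Inhba rose by 1.05 and the integrin chain Itgav by 0.53. The 3 tested genes for BMP Smads and the Smad anchor had a median difference of -0.12 in Treg and 0.09 in T-effector channels, and Smad5, which carries BMP signals, rose by 0.85 and 0.68 when IL6 was added to TGFb.

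Of 12 inhibitors, 6 rose in Treg channels with TGFb against IL2, led by Ldlrad4 (2.57), Smad7 (1.37), Pmepa1 (1.19) and Smurf1 (0.85), which act on the receptors or on Smad phosphorylation. In T-effector channels 2 rose, Smad7 by 1.1 and Ldlrad4 by 1.02. Of 4 co-repressors of Smads, 3 rose in Treg channels, Skil by 1.68, Ski by 1.05 and Tgif1 by 0.41, and Skil rose by 1.29 in T-effector channels. Of 12 target genes, 3 rose and 3 fell in Treg channels. Those that rose were Itgae, the integrin chain CD103, by 2.46, Klf10 by 1.16 and Id1 by 1.02, and among those that fell were Id2, by 1.31, and Junb, by 1.14. In T-effector channels 3 rose and 1 fell, and those that rose were Itgae by 1.70, Klf10 by 1.16 and Id1 by 0.84.

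With TGFb and IL6 against IL6, the receptor gene Acvr2a rose by 1.79 in Treg and 1.90 in T-effector channels, Bmpr2 by 1.55 and 1.24 and Acvr1c by 0.83 and 0.65. Acvr1 rose by 0.34 in Treg channels, and the activin type I receptor Acvr1b by 0.84 in T-effector channels. A further receptor, the co-receptor endoglin (Eng), fell by 0.49 in T-effector channels. Inhba rose by 1.01 and 1.16, Furin by 1.44 in T-effector channels, and Itgb8 fell by 1.59 in Treg channels. The BMP Smads Smad5 and Smad1 rose by 0.90 and 0.64 in T-effector channels. All 4 inhibitors that were called rose in both cell types, Ldlrad4 by 2.79 and 2.46, Smad7 by 1.08 and 2.17, Pmepa1 by 1.16 and 0.72 and Fst, which encodes the activin-binding follistatin, by 0.72 and 0.48. Of the co-repressors, Skil rose by 1.88 and 1.82, Ski by 1.06 and 1.19 and Tgif1 by 0.63 in Treg channels, while Tgif2 fell by 0.63 and 0.44. Of the target genes 3 rose and 3 fell in Treg and 2 rose and 1 fell in T-effector channels, among them Klf10, which rose by 1.44 and 1.32, and Itgae, by 1.29 and 1.57. Junb fell by 1.26 and Id2 by 0.73 in Treg channels.

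On adding IL6 to TGFb, Inhba rose by 0.82 in Treg and 1.34 in T-effector channels, Smad7 by 0.71 and 1.34, Fst by 0.37 and 0.32 and Id2 by 1.2 and 1.26, and Tgif2 fell by 0.55 and 0.58. In T-effector channels Ldlrad4 also rose by 1.41, Ski by 0.75 and Skil by 0.54, and Itgav fell by 0.48. With IL6 against IL2, Inhba rose by 1.11 in Treg and 1.23 in T-effector channels, Smad7 by 1.01 in Treg and Id2 by 1.23 in T-effector channels.

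**Figure D5:**
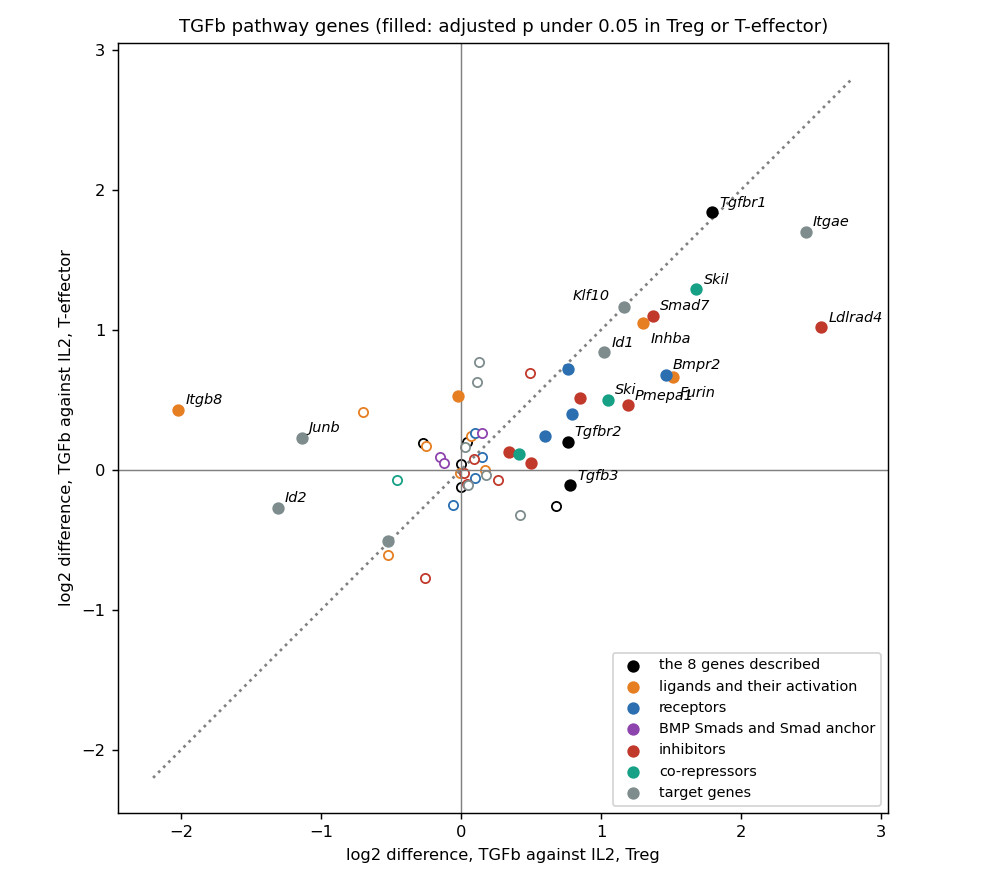
Fitted log2 difference for TGFb against IL2 in Treg channels (x axis) and in T-effector channels (y axis), 1 point per tested gene of the pathway lists and the 8 genes described here (black), coloured by role, filled where called in either cell type and with a dotted line at equal values. Tgfbr1 lies at 1.79 and 1.84, near that line, while Tgfb3 and Tgfbr2 lie at 0.78 and 0.76 on the Treg axis with T-effector values of -0.11 and 0.20.

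Markers of other cell types moved in some of the same comparisons, and fewer cells of a type and less RNA per cell cannot be told apart in these samples. Of 6 B cell markers, 2 fell in Treg and 4 in T-effector channels with TGFb against IL2, with Cd79b at -1.72 and -2.70. Their summed log2 level with IL2 was 42.46 to 46.04 in Treg channels, and 46.54 to 46.79 in T-effector channels. With TGFb it was 39.01 to 40.55 and 39.18 to 42.55. Of 6 CD8 and NK cell markers, 2 rose in Treg channels in that comparison, Cd8a by 1.82 and Klrd1 by 1.28. Their summed level in Treg channels was 42.68 to 46.90 with IL2, 48.09 to 49.63 with TGFb, 49.88 to 50.66 with both cytokines and 43.08 to 47.16 with IL6. In T-effector channels it was 47.62 to 48.70, 46.68 to 48.62, 47.54 to 49.08 and 46.98 to 48.36. Of 5 Treg markers, 1 rose and 2 fell in Treg channels with TGFb against IL2, with a median of -0.33 over the list. Ikzf2 fell by 1.93, while the mean Treg signal was 8.48 with IL2 and 8.79 with TGFb for Foxp3, and 11.47 and 12.3 for Il2ra. All 4 platelet markers were too dim to be tested, as were the myeloid markers Lyz2 and Itgam. With IL6 against IL2, a comparison in which Smad3 was called in T-effector channels, 2 of the 6 B cell markers fell there, among them Cd79b by 1.57, with a median of -0.62 over the list and a summed level of 41.40 to 42.75 with IL6. When IL6 was added to TGFb, 1 of the 6 CD8 and NK cell markers rose in each cell type, Klrd1 by 1.79 in Treg and 1.85 in T-effector channels. The median over that list was -0.08 in each cell type. The part of these markers in the results on Tgfbr1, Tgfbr2, Tgfb3, Smad3 and Smad4 was not tested.

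By Pearson correlation over the 8 group means, among 2498 genes whose group means spanned at least 1 log2 unit, Capg (0.989), Fabp3 (0.987) and Tmem158 (0.984) were most like Tgfbr1. Usp3 (0.985), 1600014C10Rik (0.983) and Il1rn (0.981) were most like Tgfbr2, and Ahrr (0.978), Tgfbr2 (0.973) and Plcg1 (0.97) most like Tgfb3, so that these members had similar patterns. Those most like Smad3 were Il21 (0.964), Il17a (0.964) and Samhd1 (0.96), of which Il21 and Il17a encode cytokines of the Th17 programme. Foxn3 (0.957), Tnks2 (0.937) and Cdcp1 (0.929) were most like Smad4, and Tuba3a (0.948) and Gne (0.926) were among those most like Tgfb1. These points share arrays, spots and normalisation and the values are a description. Tgfbr3 and Smad2 had too small a range for such a comparison.

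The authors' deposited table gives 1 value per probe and condition, which correlated at 0.85 to 0.899 with the Treg over T-effector ratios over 35300 to 39429 probes. Its column medians were -0.083 to -0.016, its direction is that of Treg over T-effector, and its exact scale and centring are not stated in the sources used here. In the authors' deposited table Tgfbr1 had 0.90, 0.80, 0.94 and 1.04 in the IL2, TGFb, TGFb with IL6 and IL6 conditions. Tgfb3 in the authors' deposited table had -0.57, 1.52, -0.16 and -0.84, a wider range than the ratios above. Tgfb1 in the authors' deposited table had -0.69, 0.74, 0.54 and -0.75.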

How the data were processed

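Gene expression was measured on 13 Agilent 2-colour arrays of 4 conditions (3, 3, 4 and 3 arrays), each holding Treg and T-effector RNA in opposite dyes, with Treg in Cy5 on 2 of 3 IL2, 1 of 3 TGFb, 2 of 4 TGFb with IL6 and 1 of 3 IL6 arrays. Each condition is 1 deposited sample, and its arrays were assigned to it and to their dyes per the labels. Spot intensities, local backgrounds and processed signals were those the authors deposited as scanner output, extracted with Agilent Feature Extraction 9.5.1.1 per the submitters' processing notes. The log10 ratio column that the authors deposited equals the log10 of processed Cy5 over Cy3 within 0.001 for 78.9% of spots and was used for this check only. The log2 values the authors deposited as 1 column per condition were used for comparison only.

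Mean and background intensities were corrected by normexp (offset 50, parameters fitted without spots flagged for their local background), normalised by loess within arrays and, for channel signals, by Aquantile between arrays, in limma 3.58.1 under R 4.3.3. Control spots (1639 of 45018 per array) were left out, spots of a probe were averaged, and probes were kept when 3 or more of the 26 channels were well above background and at most 3 arrays lacked a value, which left 28923 of 41174. Of all probes, 22951 were named through their accession, 6659 through a current symbol and 3109 through a synonym in RefSeq tables, and 8455 kept the file's name. Each gene was represented by its probe of highest mean signal. Ratios were fitted with condition and a gene-specific dye term (8 residual degrees of freedom), and channels with a separate-channel model (17 residual degrees of freedom, intraspot correlation 0.451), with Benjamini-Hochberg adjustment over 19901 genes. The fits were tested on simulated data.

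The labels number the arrays of a condition, and TGFb and TGFb with IL6 arrays of the same number share slide and dye orientation. Their deviations from the group means correlated at 0.76, 0.73 and 0.54 for the ratio, 0.70, 0.53 and 0.40 for Treg and 0.85, 0.78 and 0.28 for T-effector channels. TGFb array 2 and TGFb with IL6 array 4, both on slide B, had -0.32, 0.49 and 0.65. TGFb array 1 and TGFb with IL6 array 3, on different slides, had -0.41, 0.39 and 0.46. Other pairs of unlike number had at most 0.10 in Treg and 0.12 in T-effector channels. Pairing by number cannot be told apart from a shared slide and dye. A replicate block was fitted as an alternative.

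The 8 genes and the pathway and marker lists were chosen with earlier results of these data known. For the differences between conditions within a cell type, up to 4 called genes per pathway list were named in order of the size of the change. Endoglin, and Id1 in Treg channels, were named beyond this rule after their values were seen, and the called ratios of the lists were not described. The alternatives, whose effects the closing section gives, were the background correction, the normalisation, the filter, the choice of probe, the dye term, the slide or replicate number as a block, each array left out, and, chosen after seeing the data, each of slides A, B and E left out. The probe positions of Smad2 and Smad4 and the values of 1 gene of the target list and 1 of the marker lists are not reported here.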

Additional observations from a re-analysis of the deposited data

Results flagged for a closer look

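For Tgfbr3, the betaglycan gene, the ratio of TGFb with IL6 array 3 was -0.51, far from the other 3 arrays of its condition at -0.14 to -0.07. It was the 1 sample that stood apart among 24 groups of 4 arrays examined by Dixon's criterion, which chance meets in about 1 in 20 groups. The groups were the Treg signal, T-effector signal and ratio of each gene on the TGFb with IL6 arrays, so they are not independent. The conditions with 3 arrays were not examined in this way. The Tgfbr3 signal was near background.

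The ratio difference between conditions passed the test for a pair of genes, and neither call held in every setting. For Tgfb3 the Treg over T-effector ratio was higher with TGFb than with IL2 by 0.89 (limma adjusted p = 0.0193), with TGFb arrays at 0.54 to 0.90 and IL2 arrays at -0.32 to 0.13. It was not called without TGFb array 3 (0.83), without IL2 array 1 (0.87) or with background parameters from all spots (0.47). For Smad4 the ratio difference of TGFb with IL6 against IL6 was -0.65 (limma adjusted p = 0.0101), with TGFb with IL6 arrays at -0.41 to -0.14 and IL6 arrays at 0.06 to 0.51, and the second Smad4 probe gave -0.02 for it. It turned to 0.28 with median centring, and was not called without the dye term (-0.60), over the mean of kept probes (-0.33), without IL6 array 3 (-0.64) or without slide B (-0.64).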

How the results depend on the processing

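Of 26 called values of the 8 genes, 10 were called in all 26 settings fitted and 15 without each array in turn. In the setting with every probe, only the tested probe of each gene was counted. Of the ratios within conditions, 8 of 32 were called, against 16 with Agilent's processed signals, 5 without slide B and 5 to 8 without each array in turn. Calls rose over all genes too with Agilent's processed signals, to 16.7% to 27.3% for the 4 ratios, from 5.84% to 11%. Median centring called 11, but only 2 of the 8 in the same direction: the 4 ratios of Tgfbr1 and that of Smad4 with TGFb and IL6 were not called, and that of Smad4 with IL6 was called with its sign turned. Of the differences between conditions within a cell type, 16 of 64 were called, and 14 to 17 without each array in turn. Of the ratio differences, 2 of 32 were called, against 7 with Agilent's processed signals, 11 with median centring, 4 with the slide as a block, 1 without the dye term, 1 with background parameters from all spots, 1 without slide B and 1 to 5 without each array in turn. The share of all genes called for TGFb against IL2 was 5.87%, against 19.3% with Agilent's processed signals and 42.2% with median centring. For TGFb with IL6 against IL6 these shares were 3.99%, 16.7% and 30.7%. With the slide as a block the shares for the 2 comparisons were 9.02% and 11.4%. The replicate block called 2 further values, Smad3 in Treg channels for IL6 against IL2 (0.52) and Smad4 in T-effector channels for adding IL6 to TGFb (0.36), and changed no other call. Results that reversed did so with median centring: the ratio of Smad4 to -0.87 with IL2 and -0.63 with IL6, its ratio difference to 0.93 for TGFb against IL2 and 0.28 for TGFb with IL6 against IL6, and the ratio difference for TGFb against IL2 to 0.95 for Smad2 and 0.91 for Tgfbr1. The cause was not tested. That setting moved the median of all genes to -0.30 for the IL2 ratio and -0.32 for the IL6 ratio, and to 0.43 and 0.32 for the ratio differences of TGFb against IL2 and of TGFb with IL6 against IL6. It moved the share of called genes that were higher from 67.5% to 12.6% (IL2 ratio), from 64.4% to 5.44% (IL6 ratio), from 69.4% to 91.7% (TGFb ratio), from 40.2% to 88.7% (ratio difference, TGFb against IL2), from 37.9% to 94.7% (TGFb with IL6 against IL6) and from 34.5% of 58 to 0 of 8 calls (TGFb with IL6 against TGFb).

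Over all genes, calls ranged with the setting from 402 to 9704 around 2184 for the IL2 ratio, 201 to 3315 around 1189 for TGFb, 156 to 3596 around 1163 for TGFb with IL6 and 167 to 9015 around 1162 for IL6. For the ratio differences they ranged from 74 to 8403 around 1168 for TGFb against IL2, 17 to 6113 around 795 for TGFb with IL6 against IL6, 0 to 228 around 58 for TGFb with IL6 against TGFb and 0 to 90 around 0 for IL6 against IL2. Within cell types, in Treg and then T-effector channels, they ranged from 1008 to 2347 around 1550 and 448 to 1991 around 858 for TGFb against IL2, 462 to 2233 around 1114 and 596 to 2805 around 1491 for TGFb with IL6 against TGFb, 1121 to 3097 around 2006 and 699 to 4113 around 2225 for TGFb with IL6 against IL6, and 92 to 520 around 191 and 83 to 233 around 160 for IL6 against IL2. The stricter filter left out Tgfbr3, whose signal over background limits its values most. Of 32 ratios of the 8 genes in the authors' deposited table, 10 differed from those here by more than 1 SD between arrays, and none changed sign among called values.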
